A study of Mus musculus with 14 samples.

Results

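The MHC class I presentation machinery was followed across the tumors as 10 genes, namely H2-K1 and H2-D1 (the classical class I heavy chains), B2m (β2-microglobulin, their shared light chain), Tap1 and Tap2 (the subunits of the transporter that carries peptides into the endoplasmic reticulum), Tapbp (tapasin, which holds empty class I molecules at that transporter), Nlrc5 (the transcriptional coactivator of class I genes) and Psmb8, Psmb9 and Psmb10 (the catalytic subunits of the immunoproteasome). They were picked from the table by gene symbol, each was found on 1 row of the deposited table, and they made up 10 of its 56414 genes. All 10 passed the filter on low values (a group mean of at least 10 normalized reads in at least 1 group) in every comparison.

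Bulk RNA-seq of whole mammary tumors from C57Bl/6 mice covered 14 tumors, with 1 library each. M/D-driven tumors (4 untreated and 4 NAM-treated) arose in females that were 6 to 9 weeks old when a medroxyprogesterone acetate pellet (M) was implanted and that then received DMBA (D), a carcinogen, by gavage. AT3 tumors (3 untreated and 3 NAM-treated) grew from AT3 cells, a mouse mammary carcinoma cell line, injected under the skin, so that all 6 derive from 1 line; the age and sex of their hosts are not given in the labels. Nicotinamide (NAM) was added to drinking water at 0.5% over 10 days, starting when tumors reached 0.25 cm2. The untreated group of each model carried tumors of the same model, and no group carried a genetic change by its labels. The labels place all AT3 tumors in experiment 3, NAM-treated M/D-driven tumor 1 alone in experiment 2 and the remaining 7 tumors in experiment 1. Model and experiment therefore cannot be told apart. Nothing in the labels states which tumors came from separate mice, so p values measure the spread between tumors.

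Class I molecules display peptides from inside the cell to CD8+ T cells and are read by NK cells as well. Peptides are cut by the proteasome, trimmed, moved by TAP and loaded with the help of tapasin, and interferon gamma raises nearly every step, in part through IRF1 and NLRC5. Under interferon the constitutive catalytic subunits of the proteasome, encoded by Psmb5, Psmb6 and Psmb7, are replaced by those encoded by Psmb8, Psmb9 and Psmb10, respectively. Most of the genes sit in the major histocompatibility complex, which in the mouse lies on chromosome 17.

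In the coordinates of the deposited table (mm10), 7 of the 10 genes lay on chromosome 17: Tapbp (chr17:33919478-33929291), H2-K1 (chr17:33996013-34000334), Psmb9 (chr17:34181988-34187375), Tap1 (chr17:34187552-34197225), Psmb8 (chr17:34198195-34201454), Tap2 (chr17:34204214-34216321) and H2-D1 (chr17:35263026-35267497). B2m was at chr2:122147685-122153083, Nlrc5 at chr8:94472763-94527272 and Psmb10 at chr8:105935728-105938392. The locus of H2-D1 also lay under a row that joins H2-Q6 with Ddx39b and 2 microRNAs, which reached 86911 normalized reads. Of all stretches of 75 bases (the read length) in the annotated transcripts of H2-D1, 6.90% were found in the transcripts of other genes as well, against 1.33% for H2-K1, 0.99% for Tapbp and 0 for the 7 others, so that reads of the heavy chains could in part be shared with nonclassical class I genes.

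The promoters of genes that vary together are shown because members of the machinery are known to share regulatory elements. RefSeq (GRCm38.p6) gave a window of 300 bases (250 before and 50 after the start of transcription) for 8 of the 10 genes, Nlrc5 and Tap2 being the genes without one. The windows were searched on both strands for the core of the interferon-stimulated response element (GAAANNGAA), the gamma-activated site (TTCNNNGAA), the core of the X2 box (TGACGT), the CCAAT box (CCAAT) and a kB-like site (GGGANTNCC), and no match overlapped another. Below, capitals mark these matches in the 200 bases before the start of H2-K1 (minus strand, chr17:34000334-34000533), H2-D1 (plus strand, chr17:35262894-35263093), B2m (plus strand, chr2:122147487-122147686) and Psmb8 (plus strand, chr17:34197995-34198194), and in the 225 bases between the divergent starts of Psmb9 and Tap1 (plus strand, chr17:34187331-34187555).
H2-K1: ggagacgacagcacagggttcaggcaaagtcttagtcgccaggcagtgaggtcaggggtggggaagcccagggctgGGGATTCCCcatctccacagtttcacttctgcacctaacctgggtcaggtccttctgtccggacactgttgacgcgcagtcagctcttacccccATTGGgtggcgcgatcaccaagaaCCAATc
H2-D1: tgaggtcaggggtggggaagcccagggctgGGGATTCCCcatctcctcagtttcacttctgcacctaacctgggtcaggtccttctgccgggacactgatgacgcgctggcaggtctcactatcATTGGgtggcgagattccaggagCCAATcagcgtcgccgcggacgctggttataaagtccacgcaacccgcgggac
B2m: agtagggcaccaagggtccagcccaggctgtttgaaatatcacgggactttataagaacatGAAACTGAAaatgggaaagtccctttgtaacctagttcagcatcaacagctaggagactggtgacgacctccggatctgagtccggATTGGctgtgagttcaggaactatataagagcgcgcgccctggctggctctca
Psmb8: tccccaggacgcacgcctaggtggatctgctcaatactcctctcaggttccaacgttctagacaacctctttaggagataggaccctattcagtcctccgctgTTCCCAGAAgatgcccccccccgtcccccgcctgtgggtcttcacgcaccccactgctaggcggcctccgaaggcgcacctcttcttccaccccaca
Tap1 and Psmb9: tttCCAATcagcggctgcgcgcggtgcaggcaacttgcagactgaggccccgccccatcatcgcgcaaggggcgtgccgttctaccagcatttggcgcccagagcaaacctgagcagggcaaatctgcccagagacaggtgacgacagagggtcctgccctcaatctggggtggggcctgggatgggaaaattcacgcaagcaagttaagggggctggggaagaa

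The heavy chains H2-K1 and H2-D1 shared an unbroken run of 47 bases in these windows, which holds the kB-like site of both. A kB-like site was present in 3.95% of the 32851 RefSeq windows and in 2 of the 8 windows of the machinery. The response element core was found in B2m alone (8.56% of all windows), the gamma-activated site in Psmb8 alone (8.30% of all windows) and the X2 core in none of the 8 (7.51% of all windows), whereas the CCAAT box was found in 6 of 8 (37.4% of all windows). The CCAAT matches of Tap1 (222 bases before its start) and Psmb9 (8 bases before) are 1 site, counted in both windows. The windows are thus not independent. All matches given here are matches of letters and not sites of binding. Only the exact patterns given above were searched, and other spellings of the same elements were not counted. A window without a match, those of the heavy chains included, can therefore still hold such an element.

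Tumors differed in depth and in makeup. Whole reads recovered from the table amounted to 40936868 to 84178009 per tumor. The library labelled NAM-treated M/D-driven tumor 1 stood apart: the summed level of 9 epithelial markers was 8383 normalized reads in it, against 262631 to 1038773 in the 7 other M/D-driven tumors, while 4 B cell markers summed to 171224, against 96.9 to 1579. The sum of 5 precursor B cell markers was 173059 in the same library, against 641 to 1355 in the 7 others. What cells made up this library was not tested. Results on M/D-driven tumors are therefore given with and without it. No epithelial marker was at 0 in all tumors of a group, and AT3 tumors had epithelial sums of 73137 to 100852 on their own scale. M/D-driven and AT3 values were normalized apart by the authors. In bulk tumors, fewer cells of a type and less RNA per cell cannot be told apart.

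**Figure D1:**
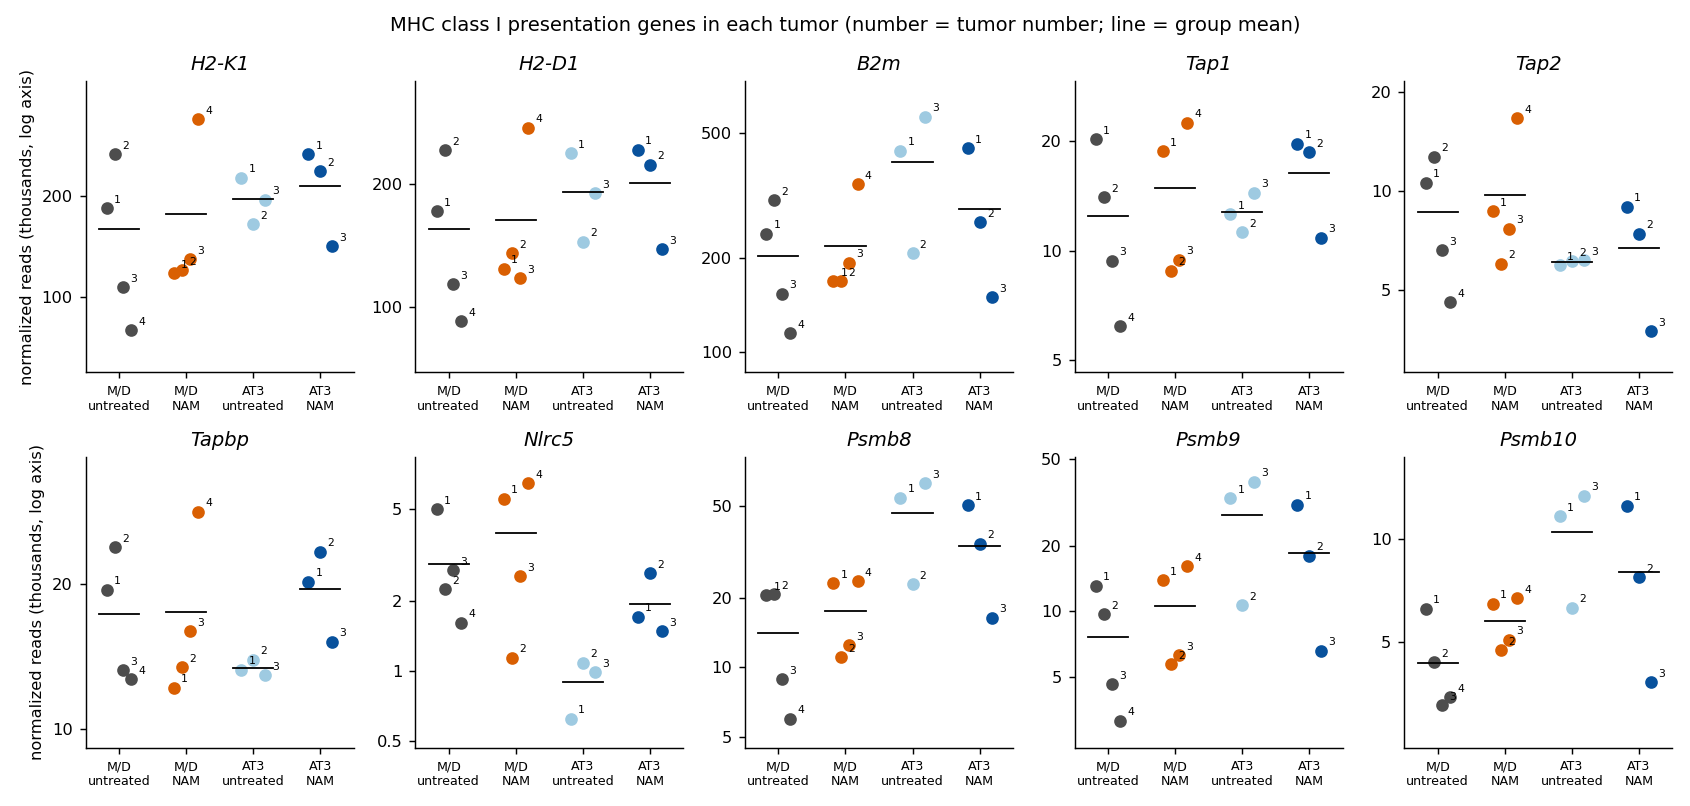
Normalized reads (in units of 1000, log axis) of the 10 class I presentation genes in each of 14 tumors, by model and treatment; points are tumors with their number, lines are group means, and the M/D-driven and AT3 scales were set apart from each other by the authors. In M/D-driven tumors NAM-treated tumor 4 is highest for 10 of 10 genes, and in AT3 tumors NAM-treated tumor 3 is lowest for 8 of 10.

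The first comparison asked how the machinery differed between NAM-treated and untreated M/D-driven tumors. None of the 10 genes was called higher or lower with NAM, a gene being called at an unadjusted p of at most 0.05 in limma together with a fold change of at least 1.5. In these tumors 3.03% of 21700 genes tested were called higher and 3.19% lower (658 and 692, or 897 and 557 with scaling by the upper quartile, which moved the median of all genes to 0.12). By edgeR and DESeq2 on the recovered reads 0 of the 10 were called as well, and 0 had an unadjusted p of at most 0.05 in limma. The untreated and NAM-treated tumors overlapped for all 10 genes, whereas over all genes tested they did not overlap for 2.43% (higher) and 2.00% (lower). The log2 fold change was above 0 for 9 of 10 genes, with a median of 0.22 (range, −0.02 to 0.53) beside 0.01 over all genes tested. The median was 0.22 as well without NAM-treated tumor 1, again with 0 called.

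H2-K1, a heavy chain, had 183552, 265439, 106942 and 79562 normalized reads in untreated tumors 1 to 4 and 117543, 119748, 129523 and 337411 in NAM-treated tumors 1 to 4. NAM-treated tumors 1 to 3 thus sat among the untreated ones and NAM-treated tumor 4 above them. Its means were 158874 ± 83571 (SD, n = 4) and 176056 ± 107696 (SD, n = 4), a log2 fold change of 0.14 (95% confidence interval, −0.94 to 1.23; adjusted p = 0.963 by limma).

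H2-D1 and B2m followed the same tumors. H2-D1 ranged from 92200 to 241820 in untreated and from 117588 to 274980 in NAM-treated tumors (log2 fold change, 0.08, interval, −0.80 to 0.96). B2m ranged from 114801 to 305976 and from 167822 to 344242 (log2 fold change, 0.14, interval, −0.71 to 0.98). For both genes the highest tumor was NAM-treated tumor 4 and the lowest was untreated tumor 4.

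The peptide loading genes gave log2 fold changes of 0.27 (Tap1), 0.18 (Tap2) and −0.02 (Tapbp), each with an interval that holds 0. Tap1 ranged from 6197 to 20158 in untreated and from 8807 to 22423 in NAM-treated tumors. Tap2 ranged from 4577 to 12716 and from 5998 to 16637, and Tapbp from 12671 to 23839 and from 12161 to 28248. The ranges of the groups overlapped over most of their length.

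Nlrc5 had the widest spread of the 10 in M/D-driven tumors, 5.66 times from the lowest to the highest tumor, against a median of 4.43 times over all genes tested. Untreated tumors 1 to 4 held 5015, 2256, 2733 and 1618 normalized reads, and NAM-treated tumors 1 to 4 held 5556, 1145, 2572 and 6483. The NAM-treated group therefore held both its highest and its lowest tumor. On the log2 scale the groups differed by 0.27 (standard error, 0.58; limma, adjusted p = 0.932).

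The immunoproteasome subunits had the largest log2 fold changes of the 10, at 0.43 (Psmb8), 0.53 (Psmb9) and 0.44 (Psmb10). Psmb9 held 13138, 9695, 4633 and 3143 normalized reads in untreated tumors 1 to 4 and 13927, 5724, 6287 and 16148 in NAM-treated tumors. Psmb10 held 6251, 4361, 3257 and 3444 in untreated and 6468, 4730, 5080 and 6711 in NAM-treated tumors, and came closest to the threshold (standard error, 0.25; adjusted p = 0.741 by limma). Untreated tumor 1 lay within the NAM-treated range for both genes, and without it Psmb10 alone was called higher.

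**Figure D2:**
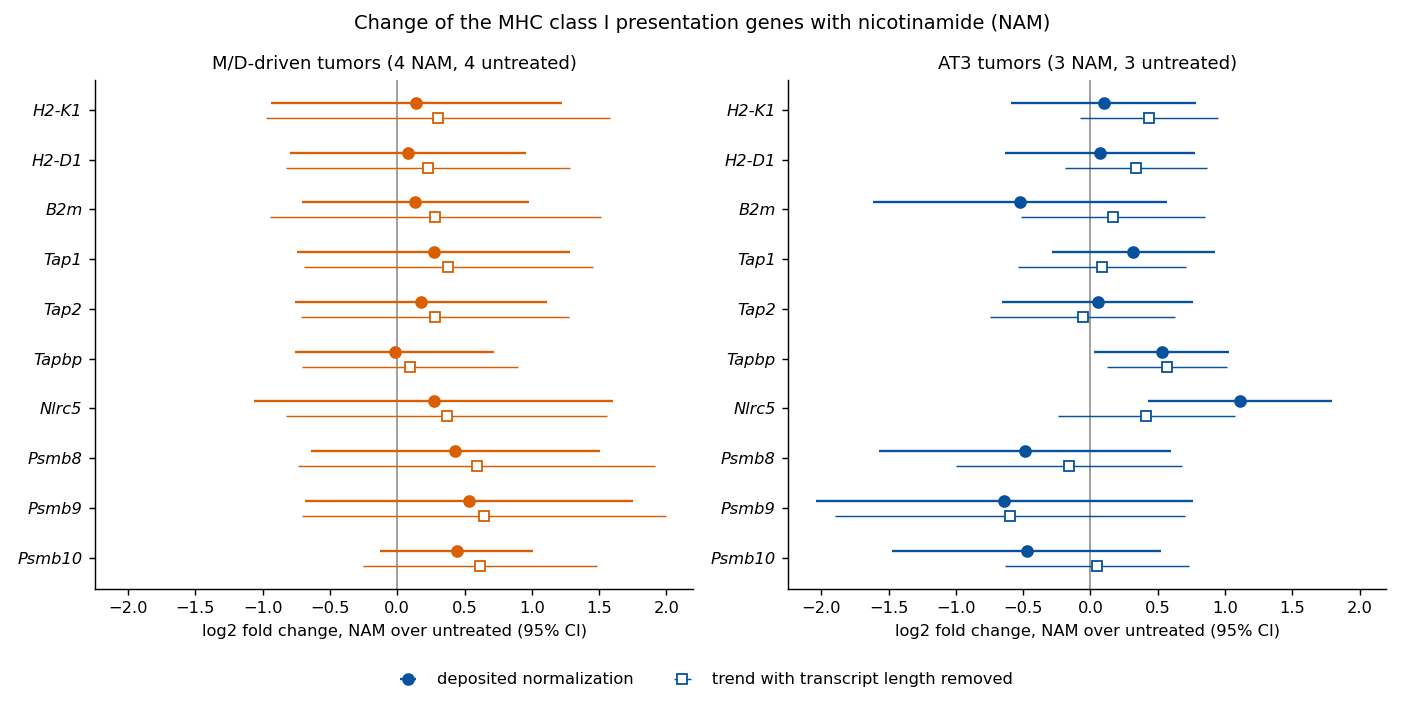
Log2 fold change of NAM-treated over untreated tumors (x axis) for the 10 genes, in M/D-driven tumors (left) and AT3 tumors (right), with bars giving 95% confidence intervals from limma; filled circles use the deposited normalization and open squares the values after removal of the trend with transcript length. All 10 intervals hold 0 in M/D-driven tumors, while in AT3 tumors those of Tapbp and Nlrc5 do not, and that of Nlrc5 holds 0 once the trend is removed.

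The highest and lowest levels lay in the same tumors for most genes. NAM-treated tumor 4 was the highest of 8 for 10 of 10 genes, and untreated tumor 4 the lowest for 7 of 10, the exceptions being Psmb10 (untreated tumor 3), Tapbp (NAM-treated tumor 1) and Nlrc5 (NAM-treated tumor 2). The median log2 fold change of the 10 genes was −0.09 without NAM-treated tumor 4 and −0.06 without untreated tumor 4, with 0 called in each case. The ratio of the highest to the lowest tumor was 2.06 to 5.66 (median, 3.63).

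Regulators of the pathway, named here after their values were seen, were highest in the same tumor. Ifng, the gene of interferon gamma, held 114.3, 56.5, 52.6 and 57.9 normalized reads in untreated tumors 1 to 4 and 13.6, 57.2, 98.5 and 220.6 in NAM-treated tumors 1 to 4. Irf1, a transcription factor induced by it, reached 10481 in NAM-treated tumor 4, against 3578 to 7665 in the 7 others. Untreated tumor 1 was second to that tumor for Ifng, and untreated tumor 4 had the lowest Irf1.

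Leukocyte genes moved in part with the machinery. Ptprc (CD45, carried by all leukocytes) was 11736 in NAM-treated tumor 4 and 9717 in NAM-treated tumor 1, against 4123 to 8034 in the 6 others. The sum of 3 leukocyte markers, Ptprc among them, was instead highest in NAM-treated tumor 1, as were 2 of the 3 markers. This sum was 111227 in NAM-treated tumor 1, 38215 in NAM-treated tumor 4 and 20467 to 33026 in the 6 others. Cd8a, a chain of the T cell coreceptor for class I, was 2816 in NAM-treated tumor 4, against 306.4 to 1540 in the 7 others. The summed level of 6 T cell markers ranged from 2050 to 5459 in untreated and from 2518 to 8720 in NAM-treated tumors, the highest again being NAM-treated tumor 4. The part of these cells in the levels of the 10 genes was not tested.

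Across the 8 M/D-driven tumors, Pearson's r of the 10 genes with Ptprc ranged from 0.24 (Tapbp) to 0.77 (Tap1), and Spearman's rho from 0.17 to 0.86. In the family of 19 relations computed (the 10 genes with Ptprc, the 9 others with Nlrc5), the smallest Benjamini-Hochberg adjusted p was 0.110 for r and 0.102 for rho (exact permutation tests, two-sided), so none passed 0.05. Without the 2 tumors farthest from the median of Ptprc, untreated tumor 4 and NAM-treated tumor 4, r ranged from −0.61 to 0.58, and those of H2-K1 (−0.50), H2-D1 (−0.43), B2m (−0.52), Tap2 (−0.22) and Tapbp (−0.61) turned negative. Their relation with Ptprc thus rested on these tumors. Within experiment 1, r ranged from 0.48 to 0.73.

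With Nlrc5, r ranged from 0.43 (Tapbp) to 0.87 (Tap1) with a median of 0.71. Without the 2 tumors farthest from its median, NAM-treated tumors 2 and 4, r was 0.88 for Tap1, 0.85 for Psmb9, 0.83 for Psmb10 and 0.75 for Psmb8, but 0.23 for H2-K1, 0.21 for H2-D1, 0.28 for B2m and −0.03 for Tapbp. Within experiment 1 it ranged from 0.59 to 0.85. The immunoproteasome genes and Tap1 therefore kept closer to Nlrc5 in these tumors than the heavy and light chains did, a difference that was not tested.

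All pairs of the 10 genes correlated positively. As a description over the same 8 tumors, r was 0.97 to 0.99 among H2-K1, H2-D1 and B2m, 0.93 to 0.96 between these and Tap2 or Tapbp, and 0.84 to 0.98 between Tap1 and the 3 immunoproteasome genes. Pairs across these groups were close to them in part, with r of 0.89 and 0.88 for Tap2 with Psmb8 and Psmb9 and 0.81 for B2m with Psmb8. The 45 pairs had a median r of 0.78 and a minimum of 0.43. Tap1 and Psmb9, on either side of the stretch printed above, had an r of 0.98, while Psmb8 and Tap2, their neighbours on the chromosome, had r of 0.95 and 0.88 with Tap1.

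Outside the 10, the rows most like their mean profile over the 8 tumors, of 21700 tested, were H2-Q6 joined with Ddx39b (r = 0.98), Ifit2 (0.98), H2-Q4 (0.97), Oxct1 (0.97) and Psme2 (0.96). The first shares its locus with H2-D1, as given above. H2-Q4 is a nonclassical class I heavy chain, Ifit2 an interferon-stimulated gene and Psme2 a subunit of the PA28 activator of the proteasome.

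**Figure D3:**
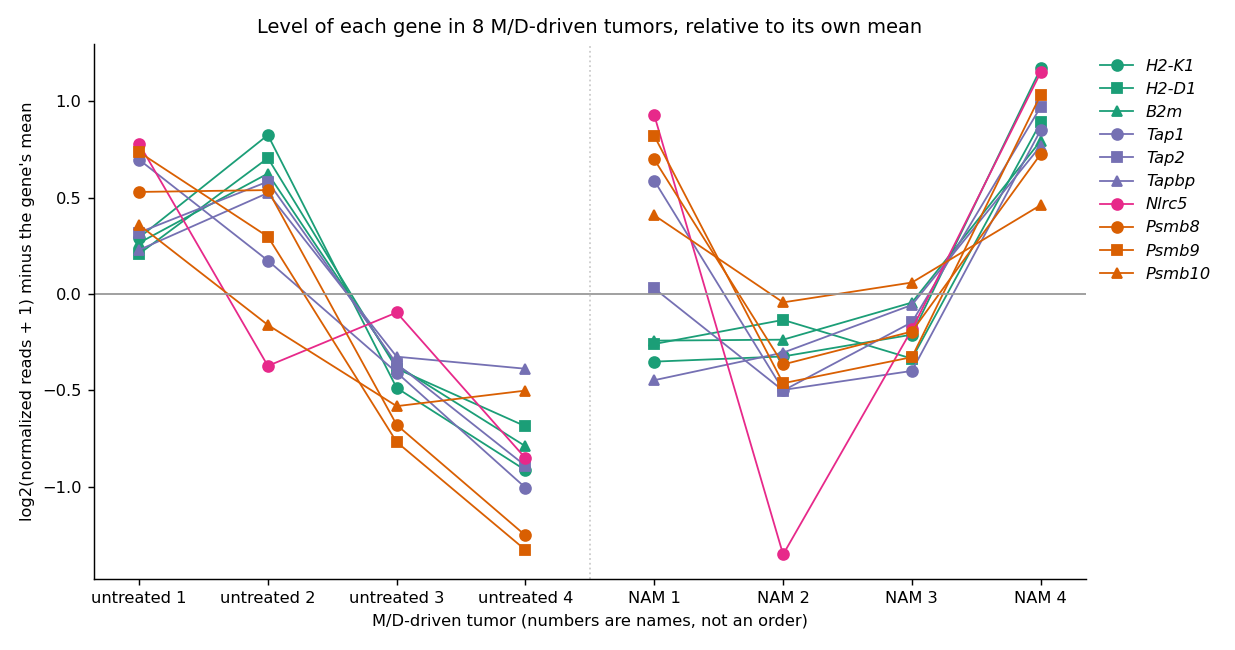
Level of each of the 10 genes in 8 M/D-driven tumors as log2(normalized reads + 1) minus the mean of the gene over the 8 (y axis), for untreated tumors 1 to 4 (left) and NAM-treated tumors 1 to 4 (right); colors group class I chains, peptide loading genes, Nlrc5 and immunoproteasome genes, and lines only join the points of a gene. All 10 genes are highest in NAM-treated tumor 4, and in NAM-treated tumor 1 Nlrc5, Tap1 and the immunoproteasome genes lie above their means while H2-K1, H2-D1, B2m and Tapbp lie below.

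Among the genes around the machinery, 0 of 14 nonclassical class I genes tested (median log2 fold change, 0.27), 0 of 13 loading and trimming genes (−0.02), 0 of 16 proteasome core and activator genes (−0.07), 0 of 15 transcription factors of class I genes (0.15), 0 of 14 interferon gamma pathway genes (0.28) and 0 of 10 class II genes (−0.41) were called with NAM in M/D-driven tumors. Without NAM-treated tumor 1 these medians were 0.18, 0.03, −0.13, −0.03, 0.46 and 0.15, in the same order. Those of the loading and trimming genes, the transcription factors and the class II genes thus changed sign. Of 9 receptors of class I, 2 receptors of NK cells were called higher and 0 lower, beside 3.03% and 3.19% of all genes tested. Klrd1 (CD94) was 122.1 ± 52.2 (SD, n = 4) without and 273.7 ± 100.5 (SD, n = 4) with NAM, a log2 fold change of 1.18 (adjusted p = 0.734 by limma). Klra1, at 4.41 ± 2.59 and 16.0 ± 8.29, passed the filter on low values through the NAM-treated group alone, so that its call is given as a description. Without NAM-treated tumor 1 neither was called (0.97 and 1.53 on the log2 scale). The summed level of 4 NK cell markers ranged from 214.9 to 781.1 in untreated and from 353.2 to 2286 in NAM-treated tumors, and its part in these calls was not tested.

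The second comparison asked the same of AT3 tumors, where 12.2% of 19281 genes tested were called higher with NAM and 10.9% lower. With scaling by the upper quartile these counts, 2358 and 2100, became 1460 and 3500, and the median of all genes moved from −0.05 to −0.26. Of the 10 genes, Nlrc5 was called higher and 0 were called lower. Nlrc5 held 623.2, 1089 and 988.2 normalized reads in untreated tumors 1 to 3 and 1720, 2647 and 1484 in NAM-treated tumors 1 to 3, so that every NAM-treated tumor lay above every untreated one. Its means were 900.3 ± 245.3 (SD, n = 3) and 1951 ± 614.7 (SD, n = 3), which differ by 1.11 on the log2 scale (standard error, 0.30; limma, adjusted p = 0.166). It was called in each of the 6 fits that left out 1 tumor, but not in a fit over all 14 tumors.

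Tapbp, the tapasin gene, held 13249, 13902 and 12895 normalized reads in untreated and 20175, 23305 and 15152 in NAM-treated AT3 tumors. These groups did not overlap either, but its log2 fold change of 0.53 (standard error, 0.22; limma, adjusted p = 0.194) was under the fold required. Without NAM-treated tumor 3 it was called as well (0.70). Nlrc5 and Tapbp were the 2 of 10 genes whose groups did not overlap, both higher with NAM, beside 11.7% of all genes tested (0 of 10 lower, beside 11.0%).

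B2m and the immunoproteasome genes had log2 fold changes under 0 in AT3 tumors: −0.52 (B2m), −0.49 (Psmb8), −0.64 (Psmb9) and −0.47 (Psmb10). B2m held 440522, 206833 and 565573 normalized reads in untreated and 447328, 259310 and 149502 in NAM-treated tumors. Psmb9 held 33162, 10634 and 39545 in untreated and 30983, 18033 and 6572 in NAM-treated tumors. In both genes untreated tumor 2 and NAM-treated tumor 3 were low, each group held high and low tumors, and none of these genes was called (adjusted p = 0.500 to 0.530 by limma). With 1 tumor left out, the log2 fold change ranged from −0.95 to −0.13 for B2m, from −0.94 to −0.039 for Psmb8, from −1.23 to −0.026 for Psmb9 and from −0.88 to −0.017 for Psmb10, the values nearest 0 being those without NAM-treated tumor 3.

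H2-K1 (0.10), H2-D1 (0.07), Tap1 (0.32) and Tap2 (0.05) had intervals that hold 0. Tap2 was the steadiest in untreated AT3 tumors, at 5933, 6112 and 6141, and spread from 3744 to 8962 in NAM-treated ones. Over the 10 genes the median log2 fold change was 0.06, beside −0.05 over all genes tested.

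Changes with NAM in AT3 tumors followed the length of transcripts. Over all genes tested with a length, the log2 fold change rose with the length of the longest annotated transcript (Spearman's rho, 0.59), from a median of −0.81 for 893 genes of 500 to 1000 bases to 0.67 for 1251 genes of 6000 to 8000 bases. Nlrc5, with 7578 bases, is the longest of the 10, and B2m, with 860 bases, the shortest. Relative to the mean of each gene over the 6 tumors, long transcripts were low in untreated tumors 1 and 3 (rho with length, −0.53 and −0.51) and high in NAM-treated tumors 2 and 3 (0.56 and 0.59), while untreated tumor 2 (−0.00) and NAM-treated tumor 1 (−0.20) lay between.

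After removal of each tumor's trend with length, the log2 fold change of Nlrc5 was 0.42 (limma, adjusted p = 0.437) and 0 of the 10 genes were called. Those of B2m, Psmb10 and Psmb8 moved to 0.17, 0.05 and −0.16. Psmb9 stayed at −0.60 and Tapbp at 0.57 (limma, adjusted p = 0.204), the latter again under the fold required. Whether the trend comes from the tumors or from their libraries was not tested.

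**Figure D4:**
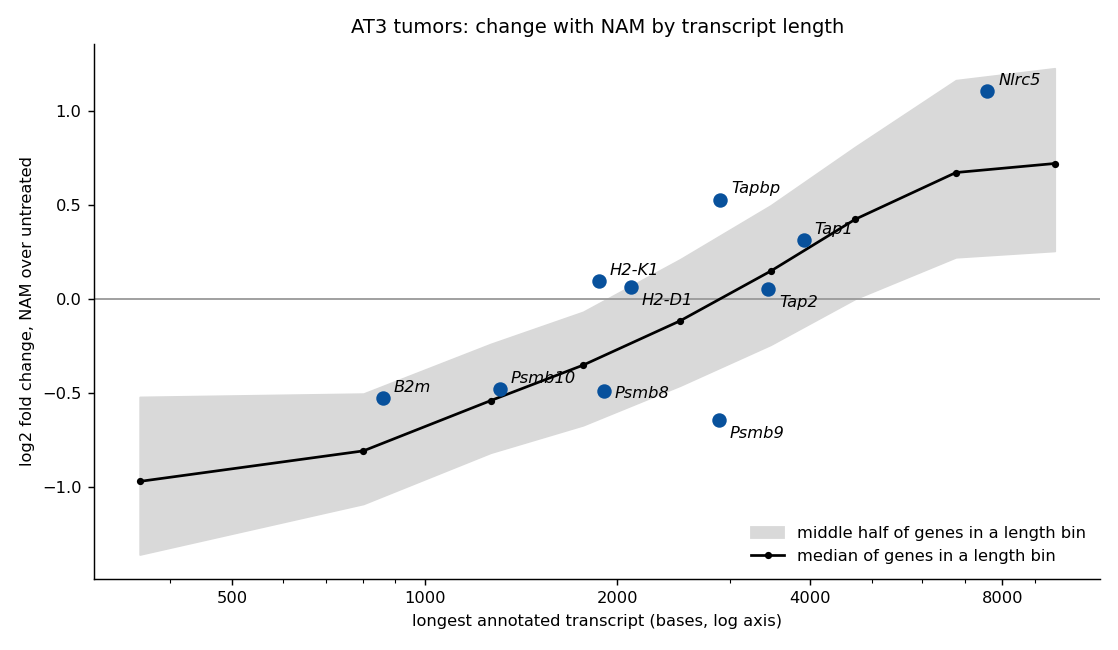
Log2 fold change of NAM-treated over untreated AT3 tumors (y axis) against the longest annotated transcript in bases (x axis, log axis); the line joins medians of genes in 9 bins of length, the band spans their middle 50%, and points are the 10 genes. Nlrc5 and B2m lie inside the band for their lengths, whereas Tapbp and H2-K1 lie above it and Psmb9 below it.

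B2m, Psmb8, Psmb9 and Psmb10 varied as a block in AT3 tumors. As a description over 6 tumors, r among them was 0.98 to 1.00, while Nlrc5 had r of −0.36 to −0.30 with these genes and Tapbp −0.13 to −0.03. From the lowest to the highest tumor they spread 3.53 to 6.02 times, against 1.76 to 2.39 times for H2-K1, H2-D1, Tap1, Tap2 and Tapbp and a median of 2.54 times over all genes tested. H2-K1 and H2-D1 had an r of 0.97 with each other.

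Ifng held 18.8, 8.12 and 79.8 normalized reads in untreated AT3 tumors 1 to 3 and 70.5, 30.1 and 4.96 in NAM-treated tumors 1 to 3. Untreated tumor 2 and NAM-treated tumor 3, the tumors low in B2m and Psmb9, also had the least Ifng. Irf1 was 6236, 3817 and 7115 in untreated and 7031, 6048 and 2993 in NAM-treated tumors, with its lowest values in the same tumors. Irf1 was 1 of the 5 genes most like the mean profile of the 10 over the 6 tumors (r = 0.98, of 19281 tested), with Gpha2 (0.99), Edem2 (0.99), Gm11127 (0.98) and 9330175E14Rik (0.98).

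T cell markers ran alongside. Cd8a was 133.3, 39.6 and 599.1 in untreated and 405.8, 232.4 and 71.0 in NAM-treated AT3 tumors, and the sum of 6 T cell markers 644.9, 306.6 and 1934, and 1567, 689.6 and 437.8. Both were lowest in untreated tumor 2 and NAM-treated tumor 3, and their part in the levels of the 10 genes was not tested. The sum of 3 leukocyte markers, by contrast, was 4688 to 6928 in untreated and 7636 to 8359 in NAM-treated tumors, which did not overlap. The sum of 4 fibroblast markers was 47696, 172348 and 58777 in untreated and 77652, 144153 and 225228 in NAM-treated tumors, highest in untreated tumor 2 and NAM-treated tumor 3, and its part was not tested either.

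Transcription factors of class I genes were called higher in AT3 tumors for 3 of 15 genes tested and lower for 0, beside 12.2% and 10.9% of all genes, with a median log2 fold change of 0.37. After removal of the trend with length 4 were called higher and the median was 0.20. Rfx5, a subunit of the RFX complex that anchors NLRC5 and CIITA at MHC promoters, rose from 233.5 ± 36.6 (SD, n = 3) to 544.9 ± 141.0 (SD, n = 3), or by 1.19 on the log2 scale (limma, adjusted p = 0.166). Creb1 (0.85) and Nfya (0.79), which bind beside it, were called as well. Ciita, the class II counterpart of Nlrc5, rose by 1.73 on the log2 scale, from 73.4 ± 37.6 to 226.7 ± 25.7, and was 1 of 10 class II genes called (3 after removal of the trend). Macrophage markers (3 of 5, with Adgre1 at 1.05 and Csf1r at 1.04), a dendritic cell marker (Itgax, 0.86) and endothelial markers (3 of 3) were called higher with NAM as well, and their part in these changes was not tested. After removal of the trend with length Rfx5 (0.84), Nfya (0.61) and Ciita (1.15) were still called, whereas Creb1 (0.12) was not.

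Loading and trimming genes were called higher for 4 of 13 tested and lower for 0 (median, 0.47, and 0.03 after removal of the trend), namely the peptidases Lnpep (1.27) and Tpp2 (1.19), the translocon subunit Sec61a1 (0.78) and the glucosidase subunit Ganab (0.67). Tpp2 (0.74) and Sec61a1 (0.74) were still called after removal of the trend with length. Of 16 genes of the proteasome core and its activator 4 were called lower and 0 higher (median, −0.70, and −0.32 after removal of the trend). The difference between these lists was not tested, and 12.2% of all genes were called higher and 10.9% lower. These were Psme2 (−1.06), the assembly chaperone Pomp (−0.91) and the core subunits Psmb1 (−0.78) and Psmb3 (−0.68), of which Pomp (−1.12) was still called. Of the interferon gamma pathway 1 of 13 genes tested was called (Jak1, 0.76, and 0.33 and not called after removal of the trend), of nonclassical class I genes 0 of 14 and of class I receptors 0 of 9.

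The third comparison asked whether the effect of NAM differed between the models, by an interaction term over all 14 tumors. Over 22710 genes tested, 7.90% were called with a larger and 6.97% with a smaller log2 fold change in AT3 than in M/D-driven tumors (1795 and 1582, or 2294 and 1206 with TMM and 944 and 3213 with upper quartile scaling, which moved the median of all genes to −0.39). Of the 10 genes 0 were called in either direction, 0 had an unadjusted p of at most 0.05 in limma, and edgeR and DESeq2 called 0 as well. The difference (AT3 minus M/D-driven) was 0.84 for Nlrc5 (95% confidence interval, −0.79 to 2.47), −0.92 for Psmb8 (−2.52 to 0.69), −1.17 for Psmb9 (−3.13 to 0.79) and −0.92 for Psmb10 (−2.07 to 0.24). These intervals all hold 0. Psmb10 was called lower without untreated AT3 tumor 2 or NAM-treated AT3 tumor 1, and Tapbp higher without NAM-treated M/D-driven tumor 4.

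The fourth comparison set the untreated tumors of the models side by side, after rescaling the 7 tumors to a common scale by their median ratio. The models differed in 26.8% of 21556 genes tested as higher in AT3 and 30.0% as lower. Against this background, 4 of the 10 genes were called higher in AT3 than in M/D-driven tumors (B2m, Psmb8, Psmb9 and Psmb10) and 1 lower (Nlrc5). The median log2 fold change was 0.82, beside −0.03 over all genes tested. Groups did not overlap for 3 genes that were higher, Psmb8, Psmb9 and Psmb10 (26.2% of all genes tested), and for 1 that was lower, Nlrc5 (27.9%).

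On the common scale Psmb8 held 18216, 18741, 7659 and 5283 normalized reads in untreated M/D-driven tumors 1 to 4 and 64091, 26601 and 74456 in untreated AT3 tumors 1 to 3. It differed by 2.21 on the log2 scale (standard error, 0.53; limma, adjusted p = 0.0084). Psmb9 went from 6810 ± 4149 (SD, n = 4) to 32836 ± 18131 (SD, n = 3), a log2 fold change of 2.29 (adjusted p = 0.012). Psmb10 went from 3841 ± 1242 to 12388 ± 4508, a log2 fold change of 1.67 (adjusted p = 0.0037). All 3 immunoproteasome genes were thus 3.17 to 4.88 times higher in AT3 tumors, and were called under each of the alternatives run.

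B2m was 1.39 higher on the log2 scale (standard error, 0.49; adjusted p = 0.041 by limma), with 101632 to 277627 in M/D-driven and 240577 to 670579 in AT3 tumors. The groups overlapped by 1 tumor, and it was not called without untreated M/D-driven tumor 4 or without untreated AT3 tumor 1 or 3, nor after removal of the trend with length (1.11). H2-K1 (0.85) and H2-D1 (0.78) were higher in AT3 tumors on average but not called (adjusted p = 0.136 and 0.130 by limma), both being called without untreated M/D-driven tumor 2. Tap1 differed by 0.58, Tap2 by 0.01 and Tapbp by 0.09, and none of these was called, Tap1 being called after removal of the trend (1.19) and without untreated M/D-driven tumor 1. With 1 tumor left out, 3 to 6 of the 10 genes were called higher.

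Nlrc5 held 4452, 2047, 2358 and 1433 normalized reads in untreated M/D-driven tumors and 737.6, 1267 and 1172 in untreated AT3 tumors on the common scale, or −1.19 on the log2 scale (standard error, 0.38; limma, adjusted p = 0.027). The coactivator of the pathway was thus lower in the model in which the immunoproteasome genes were higher. Its call was lost without untreated AT3 tumor 1, with scaling by the upper quartile (−0.71) and after removal of the trend with length, which left 0.02. With upper quartile scaling the median of all genes moved to 0.49 and the calls over all genes from 5770 higher and 6467 lower to 8368 and 4652, and 7 of the 10 genes were then called higher and 0 lower. Removal of the trend with length also moved the median of all genes, to 0.34, with 6526 called higher and 4013 lower of 18137 tested. Counts after that removal in this comparison are to be read beside these.

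The constitutive subunits were higher in AT3 tumors as well. All 3 were called higher in untreated AT3 tumors, Psmb5 by 0.89, Psmb6 by 1.91 and Psmb7 by 1.46 on the log2 scale, as were 15 of 16 genes of the proteasome core and activator (0 lower; median, 1.35). After removal of the trend with length the latter were 16 of 16 (median, 1.29), and the 3 constitutive subunits were called again. Psmb3 (1.93), Psma7 (1.69) and Psmb1 (1.44) were among the largest of the latter.

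Ratios within a tumor, which do not depend on the scaling between tumors, differed less. They can still follow the trend with transcript length, and were not computed after its removal. The log2 ratio of Psmb8 to Psmb5 was 0.59 ± 1.15 (SD, n = 4) in untreated M/D-driven and 1.91 ± 0.37 (SD, n = 3) in untreated AT3 tumors, a difference of 1.32 (exact permutation test, two-sided, p = 0.114). The differences were 0.38 for Psmb9 to Psmb6 (exact p = 0.743) and 0.21 for Psmb10 to Psmb7 (exact p = 0.400), and the groups overlapped for all 3 ratios. With 4 tumors against 3 the smallest p this test can give is 0.057.

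The mean differences of the 3 ratios with NAM were 0.67, 0.66 and 0.61 in M/D-driven tumors (exact permutation tests, p = 0.429, 0.400 and 0.171; smallest possible, 0.029) and 0.05 each in AT3 tumors (exact p = 0.900; smallest possible, 0.100). Over the 9 tests the smallest Benjamini-Hochberg adjusted p was 0.771. None of the 9 was repeated after removal of the trend with length. In AT3 tumors that removal moved the median log2 fold change of the 3 constitutive subunits with NAM from −0.54 to −0.04. In M/D-driven tumors the 3 ratios were highest in NAM-treated tumor 4. That tumor combined the highest Psmb8, Psmb9 and Psmb10 with the lowest Psmb5 (4442), Psmb6 (9651) and Psmb7 (6245) of the 8, where the 7 others held 6488 to 11535, 12542 to 18469 and 9811 to 11744.

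**Figure D5:**
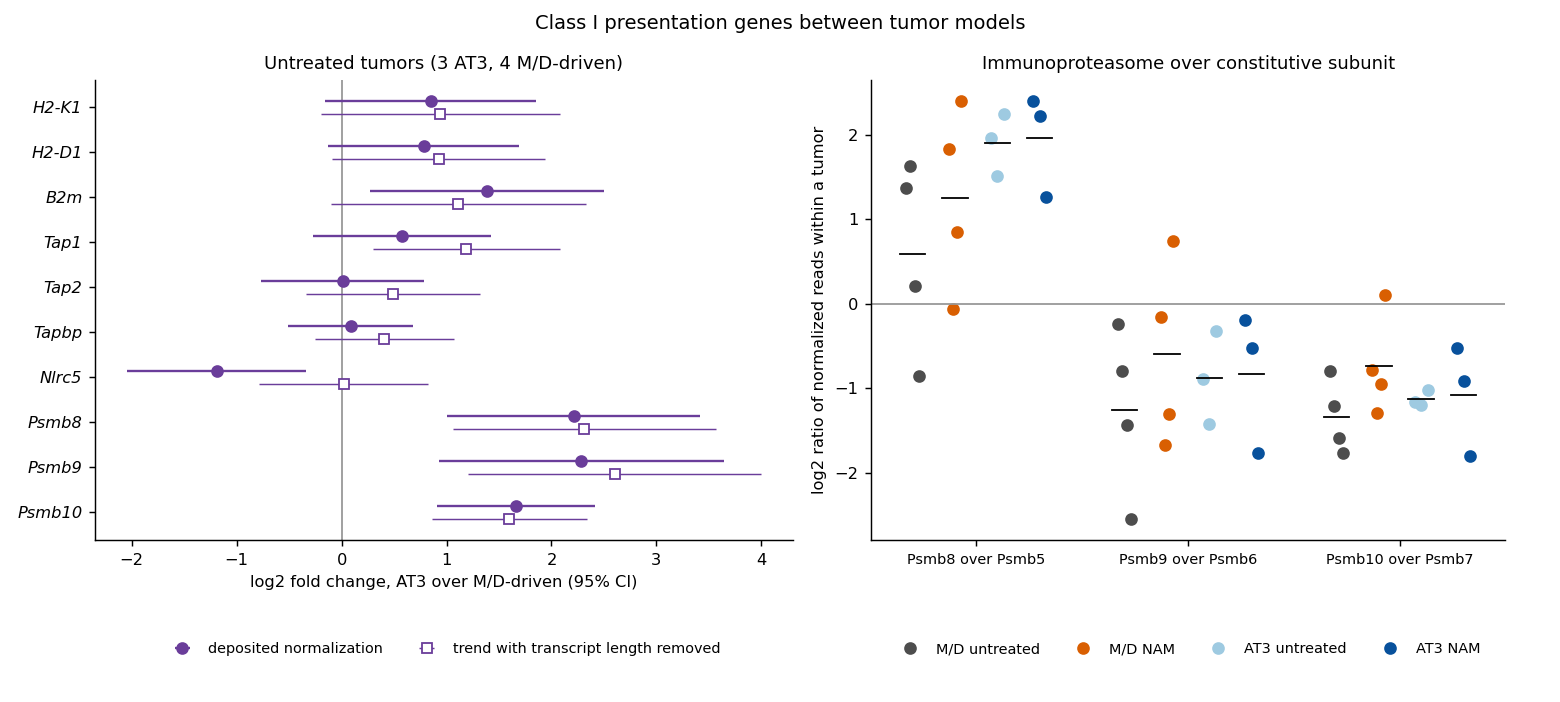
Left, log2 fold change of untreated AT3 over untreated M/D-driven tumors (x axis) for the 10 genes, with 95% confidence intervals from limma, for the deposited normalization on a common scale (filled circles) and after removal of the trend with transcript length (open squares). Right, log2 ratio of each immunoproteasome gene to its constitutive counterpart within each of 14 tumors (points), with group means (lines). The 3 immunoproteasome genes lie above 0 on the left in both settings, while on the right the groups overlap for all 3 ratios.

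All 10 class II genes were called lower in untreated AT3 than in untreated M/D-driven tumors (median log2 fold change, −2.55), with Ciita at −4.38, H2-Oa at −3.63, Cd74 at −3.09 and H2-Eb1 at −2.78. Of 14 nonclassical class I genes tested 5 were called higher and 4 lower (median, 0.38), beside 26.8% and 30.0% of all genes tested. Among them H2-T22, H2-Q7 (1.96) and H2-Q1 (1.64) were higher and H2-M2 (−5.46) lower. H2-T22 shares its row with H2-T10.

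Of 15 transcription factors of class I genes 0 were called higher in untreated AT3 tumors and 6 lower (median, −0.40), beside 26.8% and 30.0% of all genes, including Creb1 (−1.65), Irf8 (−1.38), Nfya (−1.31) and Nfkb1 (−1.13), 3 of the 15 being lower and 3 higher after removal of the trend with length (median, −0.01). Of 14 interferon gamma pathway genes 1 was called higher, the chemokine Cxcl10 (1.23), and 4 lower, with Jak1 at −1.60 and Ifngr1 at −1.18 (2 higher and 3 lower after removal of the trend; median, 0.06). Ido1, among the lower genes, passed the filter on low values through the M/D-driven group alone. Ifng itself differed by −1.07 (95% confidence interval, −2.75 to 0.60) and was not called.

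Loading and trimming genes were called higher for 1 of 13 (Calr, calreticulin, 0.62) and lower for 2 (Tpp2, −1.25, and Lnpep, −1.15), beside 26.8% and 30.0% of all genes. After removal of the trend with length these counts were 8 and 0, with the median of all genes at 0.34. Of the class I receptors 3 of 9 were called lower, close to the 30.0% of all genes tested. These were Cd8b1 (−2.39), Cd8a (−2.02) and Pirb (−0.99), of which only Cd8b1 was called after removal of the trend. Klra1 was called higher, but passed the filter on low values through the AT3 group alone.

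Markers of other cells differed between the models as well. All 3 leukocyte markers (median log2 fold change, −2.23), 5 of 6 T cell markers, 3 of 5 macrophage markers (−2.16), 3 of 4 dendritic cell markers (−2.26) and 6 of 9 epithelial markers (−3.22) were called lower in untreated AT3 tumors, and 0 of these higher. So were 2 of 4 fibroblast and 3 of 3 endothelial markers, beside 30.0% of all genes tested. By contrast, 0 of 4 NK cell markers (−0.15) and 0 of 4 B cell markers (−0.31) were called. Of 4 precursor B cell markers tested 1 was called higher (Rag1, 2.44) and 0 lower. The immunoproteasome genes and B2m were higher in the tumors in which the 3 leukocyte markers were lower. The part of the makeup of the tumors in these differences was not tested.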

How the data were processed

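RNA-seq (polyA, paired end, 75-base reads) was analysed in 14 tumors. Per the labels and the methods of the study, the authors aligned reads to mm10 with STAR 2.4.0, counted them on constitutive regions of genes (Mouse FAST DB 2016_1) and divided the counts by DESeq2 size factors, for M/D-driven and AT3 tumors apart. The deposited signal values are these normalized reads. Columns of the authors' own comparisons were not used.

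Whole reads could be recovered for 100% of values (tolerance, 0.02 reads). The main test was limma 3.58.1 (R 4.3.3, trend, log2(value + 1)) over genes whose mean reached 10 in 1 group or more, with Benjamini-Hochberg adjustment over all genes tested. Fold changes are on that scale and are understated for low genes. Alternatives were edgeR 4.0.16 and DESeq2 1.42.0 on recovered reads, other scalings, filters and pseudocounts, tumors left out, and removal of a spline (4 degrees of freedom) on transcript length, from GENCODE vM21 for 83.3% to 85.2% of genes tested. That removal also recentred each tumor: the median log2 fold change of all genes became 0.10 in M/D-driven and 0.02 in AT3 tumors. It became −0.09 for the difference between models and 0.34 between untreated models. Depth was 40936868 to 84178009 reads per tumor. The fits were tested on simulated data. Ratios and correlations used exact permutation tests. Within each list of neighbouring genes, up to 4 called genes with the largest change were named, and the 5 genes most like the mean profile of the 10 per model. Regulators and leukocyte genes given per tumor were chosen after their values were seen. The 10 genes and all lists were chosen with earlier results of these data known. A gene withheld from this text is not reported here.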

Additional observations from a re-analysis of the deposited data

Results flagged for a closer look

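In the NAM-treated M/D-driven tumors, H2-K1 and H2-D1 each had 1 tumor far from the 3 others, NAM-treated tumor 4. Its gap to the next tumor was 0.908 of the range of the group on the log2 scale for H2-K1 and 0.836 for H2-D1, above Dixon's 95% critical value for 4 samples. Chance alone passes this value in about 1 of 20 groups, and 26 groups were examined. The same tumor was the highest of 8 for all 10 genes.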

How the results depend on the processing

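Values depended most on single tumors, on the scaling and on the trend with transcript length; where no value shows the cause, the cause was not tested. In AT3 tumors the count of genes called higher with NAM was 0 after removal of the trend and 0 in 1 fit over all 14 tumors (Nlrc5 lost). With upper quartile scaling 1 gene, Psmb10, was called lower in the difference between models, and between untreated models 7 were called higher and 0 lower, the latter count being 0 after removal of the trend as well. With 1 tumor left out, the counts ranged from 0 to 1 (higher, M/D-driven), from 1 to 2 (higher, AT3), from 0 to 1 in each direction (difference between models) and between models from 3 to 6 (higher) and from 0 to 1 (lower).

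Signs turned for changes near 0. In M/D-driven tumors Tapbp was 0.090 with upper quartile scaling, 0.00052 by DESeq2, 0.093 after removal of the trend and 0.13 in experiment 1 alone. In AT3 tumors H2-K1 (−0.11), H2-D1 (−0.14) and Tap2 (−0.16) turned with upper quartile scaling, and B2m (0.17), Tap2 (−0.058) and Psmb10 (0.048) after removal of the trend. Between models Tap2 was −0.11 with TMM, −0.18 by edgeR and −0.10 by DESeq2, Tapbp −0.032 with TMM and −0.044 by edgeR, and after removal of the trend Nlrc5 was 0.021 and Lnpep 0.28. Without the 2 tumors farthest from the median, r with Ptprc was −0.50 (H2-K1), −0.43 (H2-D1), −0.52 (B2m), −0.22 (Tap2) and −0.61 (Tapbp), and r of Tapbp with Nlrc5 −0.033.

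With 1 tumor left out, log2 fold changes in M/D-driven tumors ranged from −0.22 to 0.44 (H2-K1), −0.20 to 0.33 (H2-D1), −0.11 to 0.37 (B2m), −0.019 to 0.55 (Tap1), −0.12 to 0.40 (Tap2), −0.28 to 0.15 (Tapbp) and −0.067 to 0.77 (Nlrc5). In AT3 tumors they ranged from −0.080 to 0.37 (H2-K1), −0.12 to 0.32 (H2-D1) and −0.20 to 0.43 (Tap2), and between models from −0.26 to 0.23 (Tap2) and −0.055 to 0.25 (Tapbp). Differences in log2 ratios with NAM in M/D-driven tumors ranged from 0.18 to 1.11 (Psmb8 to Psmb5), 0.21 to 1.02 (Psmb9 to Psmb6) and 0.33 to 0.80 (Psmb10 to Psmb7). Those in AT3 tumors ranged from −0.17 to 0.41 (Psmb8 to Psmb5), −0.26 to 0.52 (Psmb9 to Psmb6) and −0.22 to 0.41 (Psmb10 to Psmb7), and between models from −0.056 to 0.72 (Psmb9 to Psmb6).

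Replicate numbers showed no clear pairing of the tumors: same-numbered tumors had correlations of −0.46 to 0.11 in M/D-driven and −0.21 to 0.30 in AT3 tumors. Untreated and NAM-treated tumors of different numbers had −0.23 to 0.41 and −0.38 to 0.34. With so few tumors a pairing cannot be settled. With the replicate block, 0 of the 10 genes were called in M/D-driven tumors and 1 higher in AT3 tumors (over all genes, 479 higher and 522 lower, and 2702 and 2380), and 0 in the difference between models. In AT3 tumors 1296 of all genes tested had a limma adjusted p of at most 0.05 with the block, against 1 without it.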
